A study of Mus musculus with 6 samples.

Results

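The 10 genes described here encode the core of the BCL-2 family, which sets the threshold for mitochondrial apoptosis. They comprise the survival genes Bcl2, Mcl1 and Bcl2l1, the effectors Bax and Bak1, and the BH3-only genes Bcl2l11, Bid, Bad, Bbc3 and Pmaip1. Each was chosen by its gene symbol, and each had 1 entry among the 26384 entries of the expression table. All 10 passed the filter on low values that left 11004 entries. They were measured by RNA-Seq in MLL-AF9 cells, which are C57BL/6J mouse bone marrow progenitors transduced with the MLL-AF9 fusion oncogene and co-expressed GFP. The leukemia cells had been passaged serially in mice, grew in adult C57BL/6J recipients, and were sorted from bone marrow as GFP+ cells. The 3 control mice received vehicle and the 3 treated mice received FF-10501-01, an inhibitor of the guanine nucleotide enzyme IMPDH, at 160 mg/kg on 2 consecutive days, with harvest 48 h after the first dose according to the labels. The RNA-Seq methods of the study describe a shorter schedule, and the cells of both groups carried the same fusion.

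Proteins of the BCL-2 family act on the outer mitochondrial membrane. BAX and BAK form pores that release cytochrome c, BCL-2, MCL-1 and BCL-XL hold them in check, and BH3-only proteins bind the survival proteins or activate the effectors in response to stress. Myeloid leukemias are known for their reliance on BCL-2 or MCL-1, and the BH3-only genes Bbc3 and Pmaip1 are classical targets of p53. The question here was whether IMPDH inhibition in the animal moved the transcripts of this machinery.

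The values are FPKM, fragments scaled by transcript length and by the number of mapped fragments, so levels can be compared between genes. Libraries are numbered 1 to 3 within a group in the order of the table. The labels do not tie a number to a mouse or state a pairing between groups. Summed FPKM was 531092 to 551958 per library, and depth relative to vehicle library 1 was estimated as 0.988 to 1.25. All 12 measured markers of the MLL-AF9 myeloid state lay above 1 FPKM in at least 1 library, with Meis1 at 63.2 to 67.5 FPKM and Elane at 1822 to 2482 FPKM over the 6 libraries. Of these 12 markers, 2 were higher after FF-10501-01 (Hoxa9, whose entry also holds Mir196b, and Itgam, limma adjusted p = 0.0465 and 0.00847) and 2 were lower (Kit and Cd34, limma adjusted p = 0.0476 and 0.0176). Meis1 did not pass (limma adjusted p = 0.230). The study, which used Cuffdiff, reported Hoxa9 and Meis1 as unaffected by the drug. The call of Hoxa9 lies close to the threshold, and its values under the alternative settings are not given here. The summed level of 12 neutrophil markers lay between 592 and 639 FPKM after vehicle and between 985 and 1971 FPKM after FF-10501-01, and 7 of the 9 tested were higher, while Ly6g and Retnlg stayed below 1 FPKM. Macrophage markers summed to 43.1 to 53.5 and 58.7 to 80.4 FPKM (9 of 10 listed had an entry, C1qa, Mrc1, Cd5l, Marco and Timd4 stayed below 1 FPKM). Of the 2 tested, Vcam1, which makes up most of this sum at 38.1 to 51.1 and 54.9 to 76.4 FPKM, was higher (limma adjusted p = 0.0252), and Cd163 had a log2 fold change of -1.02 (limma adjusted p = 0.0532). Megakaryocyte markers summed to 10.1 to 11.1 and 15.8 to 24.4 FPKM (2 of 2 tested were higher). Erythroid markers summed to 29.5 to 40.5 and 19.0 to 23.4 FPKM (10 of 12 had an entry, Car1 and Slc4a1 were at 0, and 0 of 2 tested passed, both at an unadjusted p under 0.05). T and NK cell markers summed to 2.51 to 4.17 and 3.04 to 4.43 FPKM (10 of 11, with 0 of 2 tested passing and 0 at an unadjusted p under 0.05 by limma), and B cell markers to 8.24 to 9.36 and 5.71 to 6.73 FPKM (8 of 10, with Pax5 at 0, and the 1 tested was lower).

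Upstream sequence is shown for the survival gene with the highest level and for a pair of p53-inducible members, since their transcripts are set side by side below. RefSeq windows on GRCm38.p6 were matched for 9 of the 10 members, with 15 start sites in all, and the 250 bases before each start were searched on both strands. Bax is shown from chr7:45466899-45467148 on the minus strand, with capitals marking a p53 decamer and an E-box (CACGTG), while its 2 GC boxes are in lower case. Bbc3 is shown from chr7:16309333-16309582 and Mcl1 from chr3:95658471-95658720, both on the plus strand, with capitals marking GC boxes (GGGCGG on either strand).
Bax: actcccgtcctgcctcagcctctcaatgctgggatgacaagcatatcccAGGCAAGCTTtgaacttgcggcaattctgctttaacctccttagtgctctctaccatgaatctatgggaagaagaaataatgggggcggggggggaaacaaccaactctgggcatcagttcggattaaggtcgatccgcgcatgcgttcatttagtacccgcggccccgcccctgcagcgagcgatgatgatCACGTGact
Bbc3: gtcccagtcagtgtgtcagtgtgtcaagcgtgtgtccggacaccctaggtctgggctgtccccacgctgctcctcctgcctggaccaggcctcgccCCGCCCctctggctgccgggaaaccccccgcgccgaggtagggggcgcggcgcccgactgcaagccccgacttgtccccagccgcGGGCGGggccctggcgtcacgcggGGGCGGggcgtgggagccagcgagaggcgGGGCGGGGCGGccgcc
Mcl1: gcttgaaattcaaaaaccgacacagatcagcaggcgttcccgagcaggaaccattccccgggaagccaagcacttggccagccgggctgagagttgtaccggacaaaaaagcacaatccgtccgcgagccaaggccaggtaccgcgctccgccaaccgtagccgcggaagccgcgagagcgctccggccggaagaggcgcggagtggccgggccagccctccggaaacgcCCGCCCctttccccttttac
In the Bax window the decamer began 201 bases and the E-box 9 bases before the start. The Bbc3 window shown, 1 of 3 for this gene, held 5 GC boxes, of which the last pair overlap by a base. Another Bbc3 window, not shown, held an E-box. The Mcl1 window held 1 GC box. An E-box was found in 6.02% of all 32851 windows, a GC box in 32.7% and the decamer in 7.13%. Among the 9 members, 2 had an E-box, 7 a GC box and 1 the decamer in at least 1 window. None had the STAT-type motif TTCNNNGAA, which 7.02% of all windows held. A member had up to 3 windows, so these counts per gene cannot be set directly against the shares per window. These matches are descriptions of letters and were not tested for binding.

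Levels of the members spanned a wide range and their order was almost the same in all libraries. Mcl1 was highest with a mean of 155 FPKM over the 6 libraries, followed by Bak1 (134 FPKM), Bax (104 FPKM), Pmaip1 (70.1 FPKM), Bad (38.3 FPKM), Bid (38.0 FPKM), Bcl2l1 (16.7 FPKM), Bcl2l11 (7.53 FPKM), Bbc3 (6.13 FPKM) and Bcl2 (2.39 FPKM). The ranges of neighbouring genes overlapped only for Mcl1 and Bak1, for Bad and Bid, and for Bcl2l11 and Bbc3. Mcl1 was above Bak1 in 5 of 6 libraries, Bad above Bid in 2 and Bcl2l11 above Bbc3 in 4. Mcl1 exceeded 95.1% of the entries tested and Bcl2 only 9.61% of them.

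**Figure D1:**
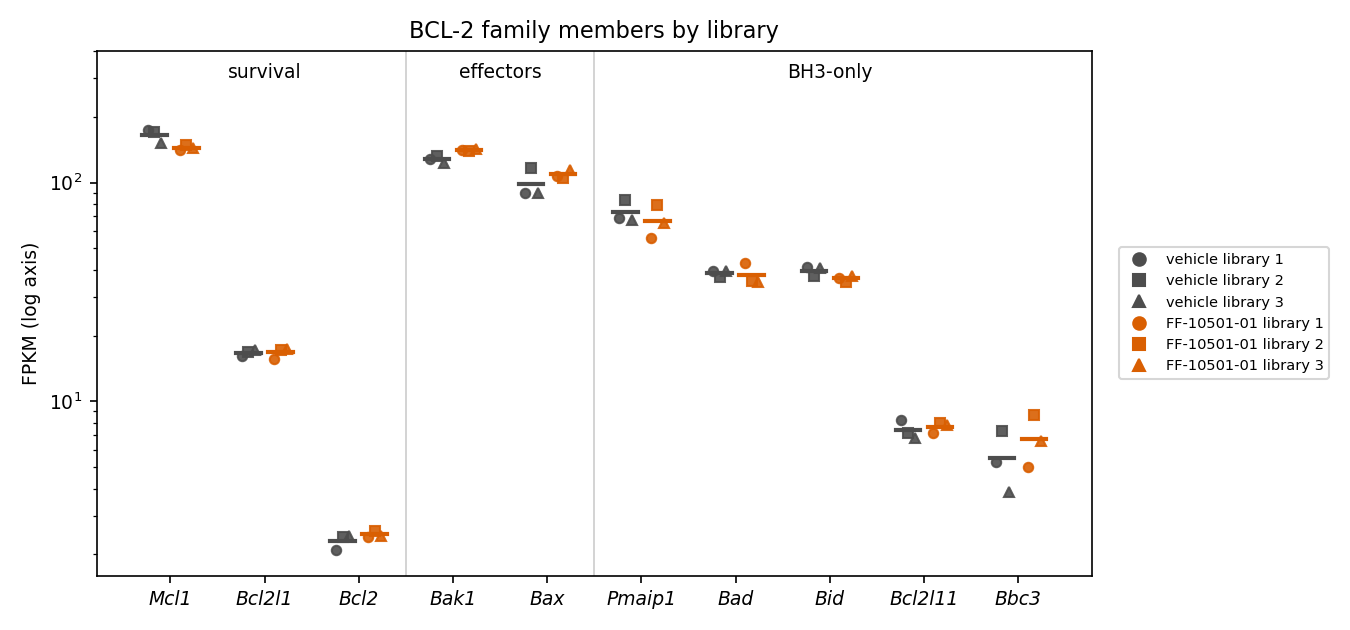
FPKM of the 10 BCL-2 family members (log axis) in each library, vehicle in grey and FF-10501-01 in orange, with a bar at the group mean (n = 3 mice per group). Mcl1 and Bak1 are the members whose groups do not overlap, and Bcl2 lies lowest in both groups.

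None of the 10 members passed the test between the groups, which was limma with Benjamini-Hochberg adjustment over all 11004 entries. At an adjusted p under 0.05 the count was 0 of 10 (smallest limma adjusted p = 0.0579), where 14.9% of all entries passed, 7.43% higher and 7.46% lower. Before adjustment, 2 of 10 members had a p under 0.05 by limma, namely Bak1 in the upward direction (15.1% of all entries) and Mcl1 in the downward direction (17.7%), against 32.8% of all entries in either direction. The same pair, Bak1 and Mcl1, had groups that did not overlap, as did 38.8% of all entries (17.6% higher and 21.2% lower). The median log2 fold change of the members was 0.02, beside -0.01 over all entries, and 5 were positive and 5 negative. The 95% interval reached 0.76 on the log2 scale for Bbc3 and no further than 0.42 in either direction for the other members. The count for all entries depended on single libraries: it was 1639 with all 6, and 357, 1673 and 682 without vehicle libraries 1, 2 and 3, and 1031, 736 and 218 without FF-10501-01 libraries 1, 2 and 3.

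**Figure D2:**
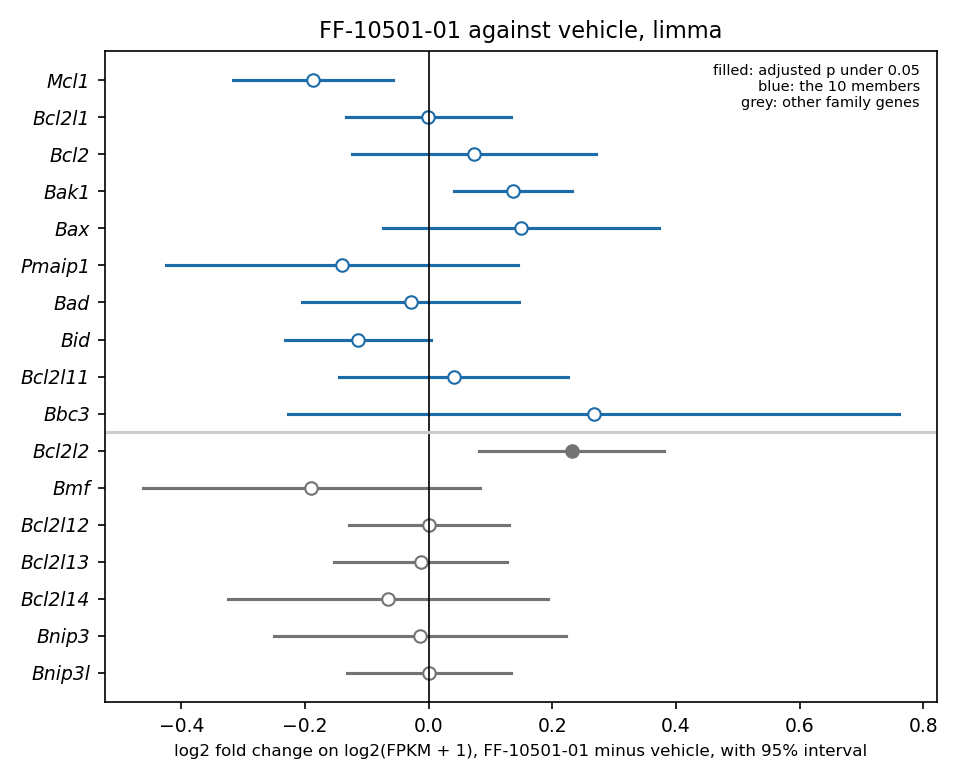
Log2 fold change on log2(FPKM + 1), FF-10501-01 minus vehicle, with its 95% interval from limma, for the 10 members (blue) and the 7 other family genes tested (grey). Only Bcl2l2, filled, passed, and the intervals of Mcl1 and Bak1 lie on opposite sides of 0.

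Among the survival genes, Mcl1 had a lower level in all FF-10501-01 libraries. MCL-1 is a short-lived survival protein on which normal and leukemic myeloid cells depend, and its gene lies on chromosome 3 of GRCm38 from 95658788 to 95663176. Mcl1 stood at 173, 170.4 and 151 FPKM in vehicle libraries 1 to 3 and at 140.5, 149 and 144 FPKM in FF-10501-01 libraries 1 to 3. The groups did not overlap, with vehicle library 3 and FF-10501-01 library 2 the closest, 151 against 149 FPKM. The means were 165 ± 12.0 and 144 ± 4.19 FPKM (SD, n = 3 per group), a log2 fold change of -0.19 (standard error 0.057, 95% interval -0.32 to -0.06, limma adjusted p = 0.0579). The call was made without vehicle library 3 (log2 fold change -0.25, limma adjusted p = 0.0366) and under quantile normalization (-0.20, limma adjusted p = 0.0330), and over all 14 alternatives the adjusted p ranged from 0.0330 to 0.174. In bulk samples, fewer cells with the transcript and less of it per cell cannot be told apart. The neutrophil markers given above also differed between the groups, and their part in the level of Mcl1 was not tested. The 5 entries nearest to Mcl1 in their deviations over the 6 libraries were Fam118a, Gtl3, Gdpd3, Bag3 and Fuk, with root mean square distances of 0.015 to 0.024 on the log2 scale and log2 fold changes of -0.21 to -0.17.

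Bcl2 and Bcl2l1 did not pass the test. Bcl2, the founding survival gene and the target of BH3-mimetic drugs (chromosome 1, 106538178 to 106714274), was at 2.09, 2.40 and 2.42 FPKM in vehicle and 2.41, 2.57 and 2.44 FPKM in FF-10501-01 libraries 1 to 3. The groups overlapped, vehicle library 1 being the low one. The log2 fold change was 0.07 (95% interval -0.12 to 0.27, limma adjusted p = 0.588), and the ratio of the mean FPKM was 1.07. Bcl2l1 encodes BCL-XL and, by splicing, a shorter form that promotes death, and gene-level values do not separate them (chromosome 2, 152780668 to 152831728). Its values were 16.1, 16.9 and 17.2 FPKM in vehicle and 15.6, 17.2 and 17.4 FPKM in FF-10501-01 libraries 1 to 3. No library stood out. The log2 fold change was -0.000745 (limma adjusted p = 0.995), and of all members Bcl2l1 had the interval that stayed closest to 0, from -0.13 to 0.13. Its sign turned with the scaling.

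The effectors Bak1 and Bax both had positive estimates. Bak1, whose product sits on mitochondria before activation (chromosome 17, 27019810 to 27029009), was at 129, 133 and 122 FPKM in vehicle and at 141, 139 and 142 FPKM in FF-10501-01 libraries 1 to 3. All treated libraries exceeded all vehicle libraries, and the coefficient of variation of the treated libraries was 1.07%. The means were 128 ± 5.14 and 141 ± 1.50 FPKM (SD, n = 3 per group), a log2 fold change of 0.14 (standard error 0.041, 95% interval 0.04 to 0.23, limma adjusted p = 0.0591). Bak1 was called with the median of ratios (limma adjusted p = 0.0400), with TPM (0.0365) and without vehicle library 2 (0.0428), within a range of 0.0365 to 0.160 over all 14 alternatives. Here too the part of the neutrophil markers was not tested. Ggnbp1 overlaps Bak1 on the opposite strand, and although the library kit was strand-specific, whether strand was used in the counting is not given in the sources used here.

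Bax, whose product moves from the cytosol to mitochondria (chromosome 7, 45461697 to 45466898), was at 89.7, 117 and 89.8 FPKM in vehicle and 107, 105 and 115 FPKM in FF-10501-01 libraries 1 to 3. Vehicle library 2 had the highest Bax level of all 6 and the other vehicle libraries the lowest, so the groups overlapped through that library alone. The log2 fold change was 0.15 (95% interval -0.07 to 0.37, limma adjusted p = 0.321). Without vehicle library 2 it was 0.28 and was called (limma adjusted p = 0.0163, with a range up to 0.646 over the 14 alternatives). Bax shares its locus with the protein-coding gene Gm45808 on the same strand, which has no entry in the expression table. The value of Bax is uncertain to that extent.

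The BH3-only genes split into 3 at moderate or high level and 2 at low level, and none of the 5 passed. Bid, which links death receptors to mitochondria (chromosome 6, 120891930 to 120916853), was at 41.0, 37.3 and 40.5 FPKM in vehicle and 36.8, 35.3 and 37.4 FPKM in FF-10501-01 libraries 1 to 3. The groups overlapped only through vehicle library 2 (37.3 FPKM) and FF-10501-01 library 3 (37.4 FPKM). The log2 fold change was -0.11 (95% interval -0.23 to 0.0037, limma adjusted p = 0.163). Bid overlaps Bcl2l13 on the opposite strand.

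Bad, whose product is switched off by growth factor signaling through phosphorylation (chromosome 19, 6941861 to 6951899), was at 39.3, 37.0 and 39.5 FPKM in vehicle and 43.0, 35.6 and 35.3 FPKM in FF-10501-01 libraries 1 to 3. FF-10501-01 library 1 was the highest of all 6 and the other treated libraries the lowest (log2 fold change -0.03, 95% interval -0.21 to 0.15, limma adjusted p = 0.818). The estimate turned positive without FF-10501-01 library 2 (0.01) or 3 (0.02). Bad overlaps Gpr137 on the opposite strand.

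Bcl2l11 encodes BIM, a direct activator of the effectors with several isoforms (chromosome 2, 128126038 to 128162547). It stood at 8.27, 7.21 and 6.77 FPKM in vehicle and 7.17, 7.98 and 7.78 FPKM in FF-10501-01 libraries 1 to 3. The extremes of all 6 libraries were both vehicle libraries, and the log2 fold change was 0.04 (95% interval -0.14 to 0.23, limma adjusted p = 0.758). Without vehicle library 3 the estimate was -0.01.

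Bbc3 and Pmaip1, the members best known as p53 targets among the BH3-only genes, varied between libraries of the same group. Bbc3 encodes PUMA, a potent BH3-only protein (chromosome 7, 16308393 to 16318205), and was at 5.26, 7.37 and 3.86 FPKM in vehicle and 5.01, 8.68 and 6.62 FPKM in FF-10501-01 libraries 1 to 3. Its coefficient of variation was 32.1% after vehicle and 27.2% after FF-10501-01, and the 6 values differed by up to 2.25-fold. The groups overlapped, and the log2 fold change was 0.27 (standard error 0.22, 95% interval -0.23 to 0.76, limma adjusted p = 0.418). With 1 library left out the Bbc3 estimate ranged from 0.07 (without vehicle library 3) to 0.47 (without vehicle library 2), and was 0.09 without FF-10501-01 library 2 and 0.44 without FF-10501-01 library 1, with no call. Pmaip1 encodes NOXA, which binds MCL-1 and favours its degradation (chromosome 18, 66458533 to 66465565). It was at 69.1, 83.1 and 67.7 FPKM in vehicle and 55.7, 79.4 and 65.5 FPKM in FF-10501-01 libraries 1 to 3, so that the groups overlapped widely (log2 fold change -0.14, 95% interval -0.42 to 0.14, limma adjusted p = 0.462). With 1 library left out the Pmaip1 estimate ranged from -0.27 (without FF-10501-01 library 2) to -0.02 (without FF-10501-01 library 1), and was -0.05 without vehicle library 2, with no call. Its coefficient of variation was 11.7% and 17.8%, beside 16.0% and 4.63% for Bax. The estimates of Bbc3 and Pmaip1 had opposite signs.

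Within each group Bbc3 and Pmaip1 ranked the libraries alike: vehicle library 2, then 1, then 3, and FF-10501-01 library 2, then 3, then 1. No other member had this order in both groups, and 2.91% of the 11004 entries had it (320 entries). Mcl1 and Bcl2l11 likewise shared an order with each other: vehicle library 1, then 2, then 3, and FF-10501-01 library 2, then 3, then 1. A shared order is thus not particular to the p53-inducible members. Cdkn1a, which encodes the p53-induced cell cycle inhibitor p21 and was chosen after its values were seen, ranked the libraries in the same way. It was at 27.7, 42.8 and 27.5 FPKM in vehicle and 37.4, 47.2 and 46.7 FPKM in FF-10501-01 libraries 1 to 3, with a log2 fold change of 0.43 (95% interval 0.06 to 0.81, limma adjusted p = 0.107). Mdm2, another p53 target, did not share this order. It was at 33.7, 32.4 and 29.7 FPKM in vehicle and 33.7, 32.9 and 34.2 FPKM in FF-10501-01 libraries 1 to 3, with library 1 the highest in vehicle and library 3 in FF-10501-01. Vehicle library 2 was the highest vehicle library for Bax, Bak1 and Trp53 as well. These genes were set side by side after their values were seen, so the shared order is a description. Trp53 itself was at 84.1, 85.0 and 83.5 FPKM in vehicle and 77.8, 79.2 and 81.9 FPKM in FF-10501-01 libraries 1 to 3 (log2 fold change -0.08, limma adjusted p = 0.196).

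**Figure D3:**
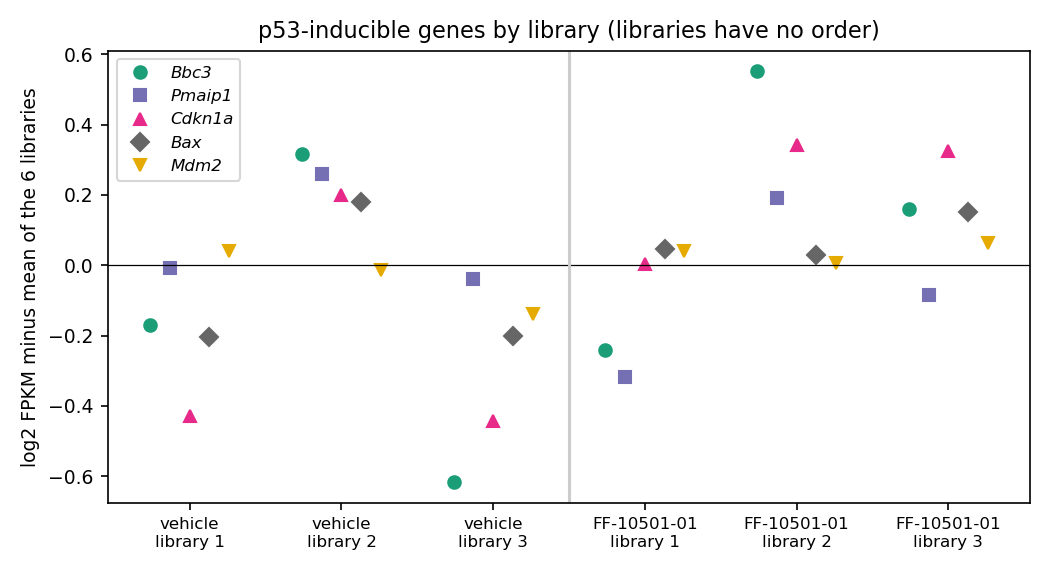
Log2 FPKM minus the mean of the 6 libraries for the p53-inducible genes Bbc3, Pmaip1, Cdkn1a, Bax and Mdm2, by library. Bbc3, Pmaip1 and Cdkn1a are highest in library 2 of both groups, Bax only in that of vehicle, and Mdm2 in neither.

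Ratios within a library do not depend on the scaling between libraries, and they are given as a description, with no test, because the pairs were chosen after the levels were seen. The FPKM ratio of Bak1 to Mcl1 was 0.744, 0.779 and 0.811 in vehicle and 1.01, 0.934 and 0.986 in FF-10501-01 libraries 1 to 3. Bax to Mcl1 was 0.518, 0.687 and 0.595 in vehicle and 0.760, 0.708 and 0.798 in FF-10501-01 libraries 1 to 3. Neither pair of ranges overlapped. For Bak1 to Mcl1 this had to be so, since both genes were already apart in opposite directions, and the share of other gene pairs that are apart was not computed. The sum of the effectors over the sum of the survival genes was 1.14 to 1.32 after vehicle and 1.45 to 1.57 after FF-10501-01. For the BH3-only sum over the survival sum the ranges nearly touched, 0.853 to 0.928 and 0.932 to 0.990. Mcl1 made up 88.5% to 90.5% of the survival sum in vehicle and 87.9% to 88.6% in FF-10501-01 libraries, so the survival sum is mostly Mcl1. Every ratio here whose ranges did not overlap contains Mcl1, whose own groups were already apart. These ratios are therefore not separate observations. The ratio of Mcl1 to Bcl2 was 82.9, 70.9 and 62.4 in vehicle and 58.4, 57.8 and 59.0 in FF-10501-01 libraries 1 to 3, and these ranges did not overlap. For Mcl1 to Bcl2l1 they did, with means of 9.87 ± 0.987 and 8.64 ± 0.363 (SD, n = 3 per group), and for Bak1 to Bax as well, at 1.13 to 1.43 and 1.24 to 1.32. Pmaip1 over Mcl1 overlapped, at 0.400 to 0.488 and 0.397 to 0.533. The 10 members together summed to 575 ± 35.2 and 569 ± 13.1 FPKM (SD, n = 3 per group).

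**Figure D4:**
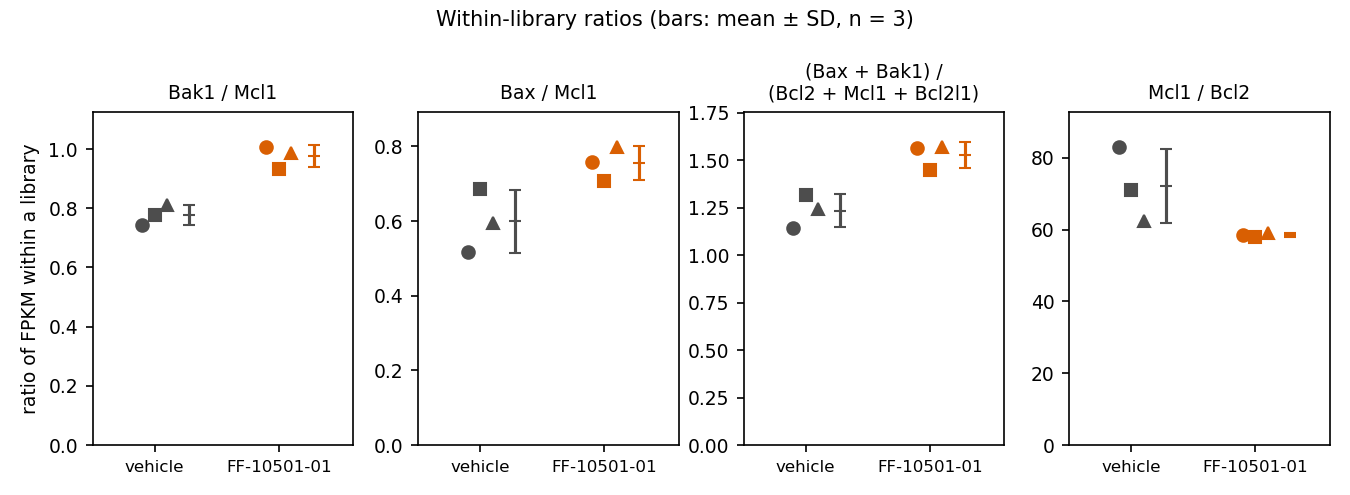
Ratios of FPKM within each library (points, axis from 0) with the mean and SD of each group beside them (n = 3 per group). The effector ratios lie higher and the Mcl1 to Bcl2 ratio lower in all 3 FF-10501-01 libraries than in any vehicle library. Each ratio contains Mcl1, whose own groups did not overlap, so the panels are not separate observations.

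Of 16 other family genes, 7 were abundant enough to be tested. Of these, 1 was higher, 0 lower and 6 did not pass, where 14.9% of all entries passed. Bcl2l2, which encodes the survival protein BCL-W, rose from 7.13, 6.98 and 6.34 FPKM in vehicle to 8.42, 8.12 and 7.96 FPKM in FF-10501-01 libraries 1 to 3. The groups were clearly apart (log2 fold change 0.23, standard error 0.065, 95% interval 0.08 to 0.38, limma adjusted p = 0.0488). Over the 14 alternatives the adjusted p ranged from 0.0398 to 0.127. The call was lost without any single library (adjusted p = 0.0686 to 0.127), with the replicate number as a block (0.0658) and without the filter on low values (0.102). Bmf, a BH3-only gene, was at 3.24, 2.19 and 2.83 FPKM in vehicle and 2.04, 2.43 and 2.35 FPKM in FF-10501-01 libraries 1 to 3 (log2 fold change -0.19, limma adjusted p = 0.299). Bcl2l12, Bcl2l13, Bcl2l14, Bnip3 and Bnip3l had log2 fold changes of 0.00026, -0.01, -0.07, -0.01 and 0.00050, with adjusted p of 0.716 or more from limma, and the signs of all but Bcl2l14 turned with the scaling. The A1 survival genes are near-identical copies that can share reads, and their entries were low: Bcl2a1a reached at most 0.164 FPKM, Bcl2a1b 0.416 FPKM and Bcl2a1d 0.593 FPKM, and Bcl2a1c was listed at 0. Bok, an effector relative, averaged 0.310 and 0.212 FPKM, Hrk was listed at 0 in every library, and Bcl2l10, Bik and Bcl2l15 averaged below 0.1 FPKM in both groups.

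Downstream of the family, all 19 genes of the mitochondrial apoptosis machinery were tested, and 1 was higher, 1 lower and 17 did not pass. Their median log2 fold change was -0.02, beside -0.01 over all entries, of which 14.9% passed. Htra2, a mitochondrial protease that blocks inhibitors of apoptosis once released, rose from 49.8, 60.6 and 56.2 FPKM in vehicle to 66.8, 66.3 and 70.8 FPKM in FF-10501-01 libraries 1 to 3 (log2 fold change 0.29, limma adjusted p = 0.0299). Casp2, an initiator caspase linked to DNA damage, fell from 37.4, 31.5 and 31.1 FPKM to 28.5, 27.2 and 25.4 FPKM (log2 fold change -0.29, limma adjusted p = 0.0425). Both calls were kept without vehicle library 2 (0.0152 for Htra2 and 0.0437 for Casp2) and lost without any other single library (adjusted p = 0.0600 to 0.110 for Htra2 and 0.0580 to 0.143 for Casp2). Vdac2, a channel of the outer membrane that binds BAK, was the most abundant of the list at 213 ± 4.90 and 218 ± 2.64 FPKM (SD, n = 3 per group, limma adjusted p = 0.481). Vdac3 and Endog had log2 fold changes of -0.08 and -0.16 (limma adjusted p = 0.217 and 0.224).

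Of the 8 genes of the death receptor pathway, 1 was higher and 7 did not pass, where 14.9% of all entries passed. The median log2 fold change was 0.09, beside -0.01 over all entries. At an unadjusted p under 0.05 by limma, 3 were higher, beside 15.1% of all entries. Tnfrsf1a, the main receptor of TNF, rose from 58.0, 64.6 and 61.1 FPKM in vehicle to 70.3, 72.5 and 78.2 FPKM in FF-10501-01 libraries 1 to 3 (log2 fold change 0.26, limma adjusted p = 0.0234). This call was lost without vehicle library 1 (0.0758) or 3 (0.0631) and without FF-10501-01 library 2 (0.0571) or 3 (0.0824). The estimate was 0.14 for Cflar, which encodes the caspase inhibitor c-FLIP, and 0.12 for the death receptor Fas, both as log2 fold changes (limma adjusted p = 0.113 and 0.213). Ripk1 shares its entry with Nqo2, and the 2 genes together gave an estimate of 0.13 on the log2 scale (limma adjusted p = 0.0770).

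Among 10 regulators of the members, 1 was higher, 1 lower and 8 did not pass, where 14.9% of all entries passed. The median log2 fold change was -0.05, beside -0.01 over all entries. Tmbim6, which encodes the endoplasmic reticulum protein Bax inhibitor 1, rose from 239, 254 and 242 FPKM in vehicle to 278, 277 and 288 FPKM in FF-10501-01 libraries 1 to 3 (log2 fold change 0.20, limma adjusted p = 0.0197). It did not pass without vehicle library 1 (0.0684) or 3 (0.0592) or without FF-10501-01 library 3 (0.0760). Huwe1, a ubiquitin ligase that marks MCL-1 for degradation, fell from 34.4, 30.4 and 29.6 FPKM to 27.4, 24.2 and 26.4 FPKM (log2 fold change -0.26, limma adjusted p = 0.0406). Usp9x, a deubiquitinase that stabilizes MCL-1, was at 17.4, 15.7 and 15.2 FPKM in vehicle and 14.9, 13.2 and 13.3 FPKM in FF-10501-01 libraries 1 to 3 (log2 fold change -0.21, limma adjusted p = 0.0804). The call of Huwe1 was lost without any single library (adjusted p = 0.0518 to 0.117). For none of the genes in these lists was the part of the neutrophil markers tested, and protein levels are not part of these data.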

How the data were processed

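RNA-Seq of 6 samples, 3 vehicle and 3 FF-10501-01, was analysed. The FPKM values were deposited by the authors, whose notes name cutadapt 1.8.1 for trimming, TopHat2 2.1.1 for alignment (GRCm38) and Cufflinks 2.2.1 for the FPKM per gene. The table holds no read counts, so the authors' Cuffdiff test could not be repeated and no counting interval was computed. Relative depth was estimated from entries at or below 0.3 FPKM, of which 70.4% to 72.2% differed from vehicle library 1 by ratios of whole numbers up to 5 (within 0.01 on the log scale).

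Column names gave the group but not the sample. Values were taken as log2(FPKM + 1), which understates changes of low genes, for 11004 entries with a mean of at least 1 FPKM. They were fitted with limma 3.58.1 in R 4.3.3 (treatment as the only term, eBayes with trend, two-sided, Benjamini-Hochberg over all entries, called at an adjusted p under 0.05), after the fit was tested on simulated data. Lists are described by counts and medians only. Gene positions are from GENCODE M21 on GRCm38. Figures were drawn with matplotlib 3.10.9 in Python 3.11.15.

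The members, lists and motifs were chosen with earlier results of these data known. All members and other family genes are named, and in each other list the genes that passed, up to 4 by smallest p and the one with the highest level, besides the 5 entries nearest to the member with the smallest p. Alternatives were another pseudocount (0.1), no filter or one at 5 FPKM, scaling by the median of ratios, TPM, quantile normalization, no trend, a block for the replicate number, and leave-one-out fits. Some marker genes are not reported here.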

Additional observations from a re-analysis of the deposited data

How the results depend on the processing

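The count of called members was 0 with all libraries, 1 with the median of ratios, 1 with TPM (both Bak1) and 1 with quantile normalization (Mcl1), and ranged from 0 to 2 when 1 library was left out. Over all entries the count was 1639, fell to 581 without the filter on low FPKM and ranged from 218 to 1673 when 1 library was left out. With TPM, 60.2% of the calls over all entries were higher, against 49.9% as deposited. For the other family genes the count fell from 1 to 0 without the filter and with the replicate number as a block, and ranged from 0 to 0 with 1 library left out. For the mitochondrial machinery it fell from 2 to 0 without the filter and without a trend and to 1 with TPM, ranging from 0 to 2 with 1 library left out. The death receptor count fell from 1 to 0 without the filter and ranged from 0 to 1, and that of the regulators fell from 2 to 1 without the filter, with TPM and without a trend and ranged from 0 to 1. The cause of these changes was not tested.

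Bcl2l1 turned positive with the median of ratios (0.011), TPM (0.016) and quantile normalization (0.0033). Estimates near 0 also changed sign for Bcl2l12 (-0.0087) and Bnip3l (-0.0054) with quantile normalization, and for Bcl2l13 (0.0034) and Bnip3 (0.0018) with TPM. With 1 library left out, estimates ranged from -0.027 to 0.046 for Bcl2l1, -0.015 to 0.11 for Bcl2l11, -0.12 to 0.019 for Bad, -0.036 to 0.049 for Bcl2l12, -0.037 to 0.032 for Bcl2l13, -0.16 to 0.034 for Bcl2l14, -0.11 to 0.11 for Bnip3 and -0.044 to 0.044 for Bnip3l. Whether the numbers in the column names pair the samples is not known. Same-numbered libraries deviated from their group means with r of -0.011, -0.074 and -0.036. For differently numbered libraries r was -0.113 to 0.133. With so few libraries per group, these values cannot settle the pairing. With the number as a block, 0 members and 1252 of all entries were called. Among the family, apoptosis and regulator genes named, the one call lost was that of Bcl2l2. The calls of marker genes are not given for this fit.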
